A study of Homo sapiens with 4 samples.

Results

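The expression of 10 genes that fill, empty and sense the calcium store of the endoplasmic reticulum (ER) was examined in A549 cells, a human lung adenocarcinoma cell line, after transduction with the FCN3 virus. The genes were chosen by symbol: the pumps ATP2A2 and ATP2A3, the release channels ITPR1, ITPR2 and ITPR3, the store sensors STIM1 and STIM2, the entry channel ORAI1, and the lumenal calcium-binding proteins CALU and RCN1. The choice was made with earlier results of these data known. All 10 were among the 25192 genes of the deposited tables and among the 14099 that passed the filter on low counts. RNA came from 2 samples transduced with the empty virus (EV), which expresses only GFP, and 2 samples transduced with a virus that expresses full-length human FCN3 with a V5 tag together with GFP. The same line, medium and extraction time of 48 h after infection were used for both groups. The comparison asks how forced expression of FCN3, a secreted lectin, changed these mRNAs. It is a single tumor line under viral overexpression. Nothing in the labels says whether the 2 samples of a group were infected separately, so the spread between these libraries may be technical. The main p-values do not measure all of that spread. They use what is left of it once the replicate number is fitted, with the variance moderated across genes. For each gene the FCN3-virus library was set against the EV library of the same replicate number.

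The ER is the main calcium store of the cell, and many of its folding enzymes and chaperones need a high lumenal calcium level. SERCA pumps move calcium from the cytosol into the lumen, and IP3 receptors release it again when the messenger IP3 binds. When the lumen empties, STIM proteins in the ER membrane sense the loss and open ORAI channels in the plasma membrane, which lets calcium in for refilling. Proteins of the CREC family, among them calumenin (CALU) and reticulocalbin 1 (RCN1), bind calcium in the lumen of the secretory pathway with low affinity.

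Library totals ran from 16353554 to 35733735 expected counts. Replicate 2 had fewer counts than replicate 1 in EV cells and with the FCN3 virus alike. FCN3, the gene carried by the virus, had 1 and 0 expected counts in the EV libraries and 722388 and 448352 in the FCN3 libraries. All 6 epithelial markers on a fixed list (EPCAM, CDH1, KRT7, KRT8, KRT18 and KRT19) were above 3 counts in every library, with a summed level between 7823 and 10242 TPM (a read density per transcript length, scaled to the same total in every library), most of it from KRT7, KRT8 and KRT18. EPCAM was at 2.66 and 3.65 TPM in the EV libraries against 1.09 and 1.61 TPM with the FCN3 virus, CDH1 at 6.06 and 9.53 against 3.35 and 6.79 TPM, and KRT19 at 32.6 and 52.4 against 87.2 and 97.9 TPM. 3 of 4 leukocyte markers and 3 of 4 muscle markers stayed at or under 3 counts in every library. The endothelial list summed to at most 0.08 TPM. The fibroblast list summed to 3.55 and 8.61 TPM in the EV libraries and 2.86 and 8.35 TPM in the FCN3 libraries, so that it moved with the replicate number.

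With the FCN3 virus, 5 of the 10 genes rose and none fell in edgeR's quasi-likelihood test with the replicate number as a block, at an adjusted p (FDR) under 0.01. The genes that rose were both pumps, the most abundant IP3 receptor (ITPR3) and both CREC proteins, by 0.37 to 0.63 on the log2 scale. As RNA of whole cultures was measured, a change in each cell and a change in the share of transduced cells cannot be told apart. The same fit called 36.2% of all tested genes, 19.1% as higher and 17.1% as lower. Over the 10 genes the log2 fold changes had a median of 0.31, against 0.01 over all tested genes and 0.47 over all genes called higher. In CPM (counts scaled to a common library total, with TMM factors), the FCN3 and EV libraries did not overlap for 8 of the 10 genes, 6 of them higher and 2 lower with the FCN3 virus. Over all tested genes 54.5% did not overlap, 28.0% higher and 26.5% lower.

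How many of the 10 were called depended on whether libraries of the same replicate number were treated as pairs, and on the tool. Without that block the fold changes were nearly the same, but edgeR called none of the 10 at an FDR of 0.01. The smallest adjusted p of the 10 in that edgeR fit were those of CALU (0.021) and RCN1 (0.040). At 0.01 the same fit called 0.965% of all tested genes, 0.738% as higher and 0.227% as lower. DESeq2 with the block called 4 of the 10, all but ATP2A3 of the 5 above, beside 16.2% of the genes it tested (8.10% higher and 8.08% lower). DESeq2 without the block called 3 of the 10, ATP2A2 (adjusted p = 0.0011), CALU (2.9e-05) and RCN1 (0.0022), all higher, beside 7.86% of the genes it tested (4.43% higher and 3.43% lower). For a single gene, the smallest two-sided p that exact permutation of 2 and 2 libraries allows is 0.333.

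**Figure D1:**
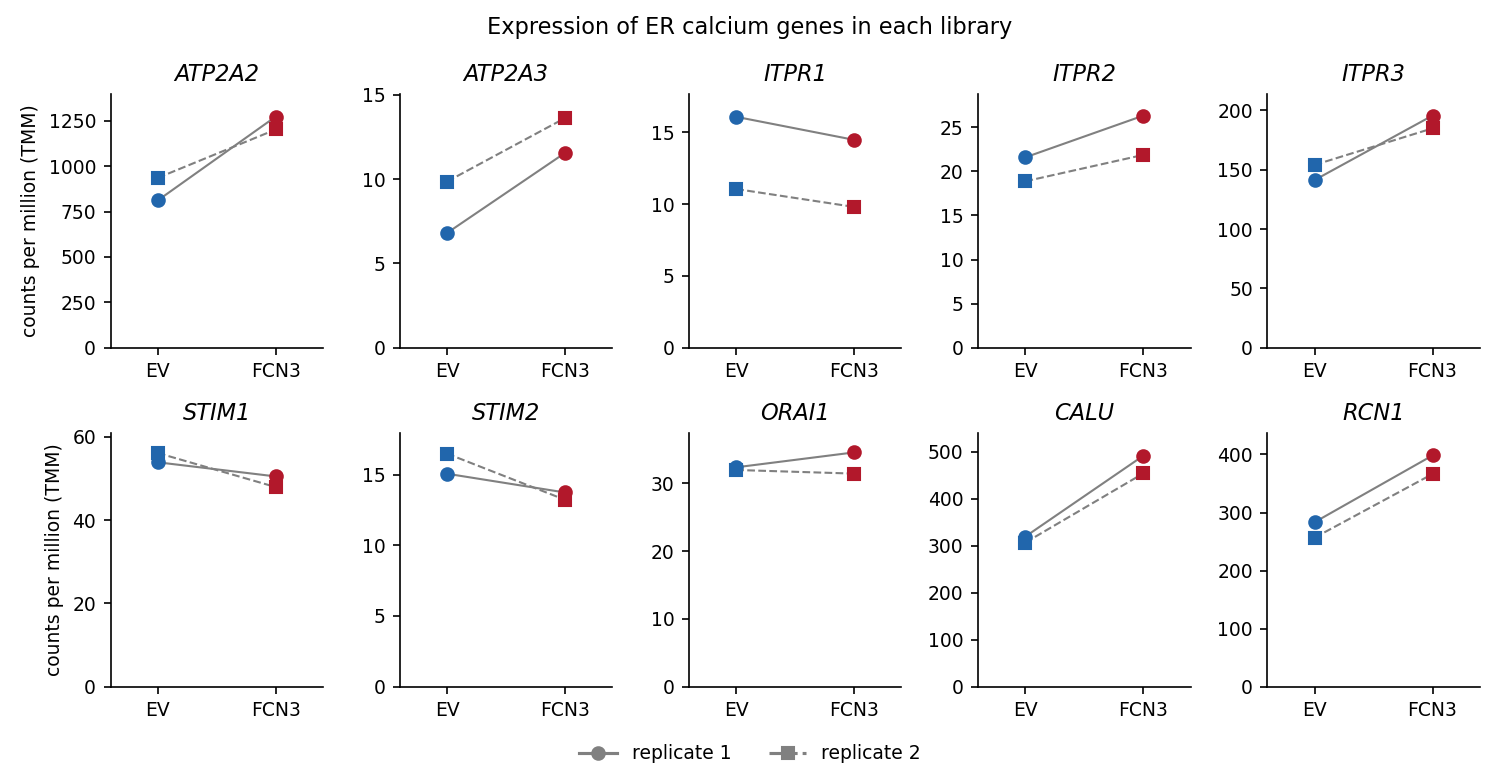
TMM-normalized CPM (vertical axes, each from 0) of the 10 genes in the EV and FCN3-virus libraries, with a line joining libraries of the same replicate number (circles and solid lines for replicate 1, squares and dashed lines for replicate 2). Both lines climb in ATP2A2, ATP2A3, ITPR2, ITPR3, CALU and RCN1, both slope down in ITPR1, STIM1 and STIM2, and those of ORAI1 go opposite ways.

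ATP2A2 encodes SERCA2, the SERCA pump found in most cell types, and lies on the plus strand of chromosome 12 from 110718561 to 110788898 (all gene positions are those of GRCh37, and all 10 genes are annotated as protein-coding). Its level was 812 and 936 CPM in the EV libraries and 1274 and 1203 CPM in the FCN3 libraries. Both FCN3 libraries were above both EV libraries. The log2 fold change was 0.51 (SE 0.05, 95% interval 0.40 to 0.61, adjusted p = 8.0e-12 in edgeR), an increase of 42.0%. Within replicate pairs the log2 difference was 0.65 for replicate 1 and 0.36 for replicate 2. Without the replicate block the adjusted p was 0.053. ATP2A2 was among the most abundant mRNAs of these cells, and only 0.709% of tested genes had a higher average CPM.

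ATP2A3 encodes SERCA3, a pump best known from blood cells and some epithelia (minus strand of chromosome 17, 3827164 to 3867758). It was at 6.81 and 9.86 CPM in the EV libraries and 11.6 and 13.6 CPM with the FCN3 virus, from 248 and 165 against 392 and 271 expected counts. The groups did not overlap, and in both groups replicate 2 was the higher library. Its log2 fold change of 0.63 was the largest of the 10 genes but also had the largest SE (0.12, 95% interval 0.39 to 0.87, adjusted p = 1.4e-05 in edgeR). The adjusted p was 0.16 without the replicate block and 0.041 in DESeq2 with it. When EV replicate 1 was left out, in a fit without the block, the log2 fold change was 0.35, and when EV replicate 2 was left out it was 0.87. In TPM, which is per transcript length and lets genes be set side by side, ATP2A3 made up 1.09% and 1.37% of the summed level of both pumps in the EV libraries and 1.13% and 1.44% in the FCN3 libraries. SERCA mRNA in these cells was thus almost all ATP2A2 in every library.

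The deposited tables also give a mean transcript length per gene, weighted by the estimated abundance of its isoforms, so that it moves only when the mix of isoforms moves. ATP2A2 is known to be spliced at its 3′ end into a muscle form and a widely expressed form, and the tables list 2 RefSeq transcripts for it. Its mean length was 6127 and 6195 bases in the EV libraries and 5929 and 6037 bases in the FCN3 libraries. Both FCN3 libraries were below both EV libraries, and the mean length dropped by 198 bases in replicate 1 and dropped by 158 bases in replicate 2. Among the 5711 tested genes whose length varied at all, 19.6% had both FCN3 libraries below both EV libraries, and 9.70% changed by more than ATP2A2 in relative terms. The tables do not say which of the 2 transcripts took the larger share. With an offset for the effective lengths, the log2 fold change of ATP2A2 was 0.55 (adjusted p = 2.9e-11 in edgeR). In ATP2A3, CALU, ITPR1 and STIM2, the other genes with several listed transcripts, the mean length ranged over at most 26.8 bases among the 4 libraries. The remaining 5 genes have 1 listed transcript, so their length is fixed.

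**Figure D2:**
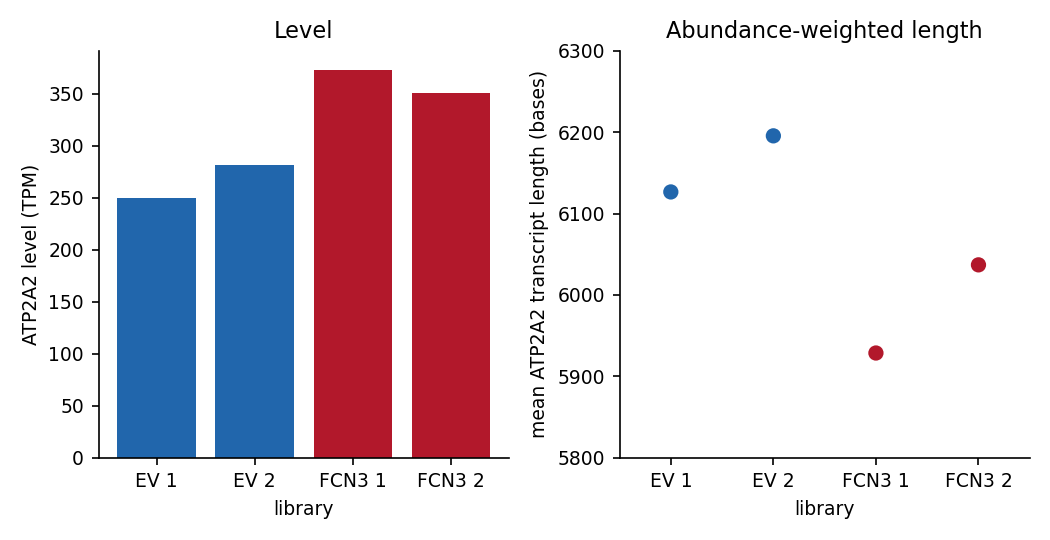
Level of ATP2A2 in TPM (left, bars from 0) and its abundance-weighted mean transcript length in bases (right, points on an axis that does not start at 0) in each library, EV in blue and the FCN3 virus in red. Both FCN3 libraries have a higher level and a shorter mean length than both EV libraries.

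The 3 IP3 receptors differed in abundance and in their response. ITPR3 (plus strand of chromosome 6, 33588142 to 33664351), the subtype common in epithelial cells, was at 141 and 154 CPM in the EV libraries and 196 and 185 CPM in the FCN3 libraries, with no overlap. It rose by 0.37 on the log2 scale (SE 0.05, 95% interval 0.26 to 0.48, adjusted p = 1.1e-07 in edgeR, and 0.070 without the replicate block). Its exons overlap those of UQCC2 on the opposite strand by up to 863 bases in the GENCODE annotation. As the strand setting of the counting is not given in the sources used here, reads of the overlap cannot be assigned with certainty.

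ITPR2, a receptor with high affinity for IP3 (minus strand of chromosome 12, 26488285 to 26986127), was at 21.6 and 18.9 CPM in the EV libraries and 26.3 and 21.9 CPM with the FCN3 virus. Both FCN3 libraries were above both EV libraries by a small margin. The log2 fold change of 0.25 (SE 0.09, 95% interval 0.08 to 0.43) missed the threshold, with an adjusted p of 0.013 in edgeR, or 0.36 without the replicate block. limma-voom, the older quasi-likelihood method and a filter of 10 counts in every library put it just past the threshold, with an adjusted p between 0.0078 and 0.0085. In DESeq2 the adjusted p was 0.34 with the block and 0.60 without it, and in limma on log2(TPM + 1) it was 0.23.

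ITPR1, the subtype best known from neurons (plus strand of chromosome 3, 4535029 to 4889190), was at 16.1 and 11.1 CPM in the EV libraries and 14.5 and 9.80 CPM in the FCN3 libraries. Here the replicate number mattered more than the virus: replicate 2 was below replicate 1 by 0.55 on the log2 scale (adjusted p = 6.9e-05 for the replicate term in edgeR), and the groups overlapped. The log2 fold change for the virus was -0.16 (SE 0.11, 95% interval -0.37 to 0.05, adjusted p = 0.22 in edgeR). It was -0.15 in replicate 1 and -0.17 in replicate 2. ITPR1 was the only one of the 10 genes with an adjusted p under 0.01 for the replicate term.

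In TPM, ITPR3 made up 82.6% and 86.8% of the summed IP3 receptor level in the EV libraries and 86.0% and 88.4% in the FCN3 libraries. The share of ITPR1 was 8.40% and 5.56% in EV cells and 5.69% and 4.18% with the FCN3 virus. ITPR3 was the leading subtype in every library, while the ranges of its share overlapped between the groups. The summed level of the 3 receptors was 35.4 and 36.3 TPM in the EV libraries and 43.2 and 40.5 TPM in the FCN3 libraries.

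Neither of the store sensors nor the entry channel passed the test. STIM1, the main sensor of store depletion (plus strand of chromosome 11, 3875757 to 4114440), was at 53.9 and 56.1 CPM in the EV libraries and 50.5 and 47.9 CPM in the FCN3 libraries. Both FCN3 libraries were below both EV libraries. The log2 fold change was -0.16 (SE 0.07, 95% interval -0.29 to -0.03, adjusted p = 0.044 in edgeR, and 0.35 without the replicate block).

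STIM2, which responds to small falls in store calcium (plus strand of chromosome 4, 26859223 to 27027003), was at 15.1 and 16.5 CPM in the EV libraries and 13.7 and 13.2 CPM with the FCN3 virus. These groups did not overlap either, with a log2 fold change of -0.21 (SE 0.10, 95% interval -0.42 to -0.01, adjusted p = 0.079 in edgeR, and 0.37 without the replicate block). With the block the intervals leave room for a fall of both sensors of up to 0.29 and 0.42 on the log2 scale and for almost none. Without it they span 0, from -0.39 to 0.07 for STIM1 and from -0.55 to 0.11 for STIM2. STIM1 made up between 81.4% and 82.6% of the summed STIM level in TPM in the 4 libraries.

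ORAI1, the pore of the store-operated channel (plus strand of chromosome 12, 122064414 to 122081124), was at 32.4 and 32.0 CPM in the EV libraries and 34.6 and 31.4 CPM in the FCN3 libraries. The groups overlapped, and the log2 difference was 0.10 in replicate 1 and -0.02 in replicate 2. The fitted log2 fold change of 0.04 (SE 0.08, 95% interval -0.11 to 0.19, adjusted p = 0.69 in edgeR) had no stable direction, as it was -0.07 on the log2(TPM + 1) scale. That scale moved the median of all genes by -0.10.

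CALU and RCN1 rose most evenly across the pairs. CALU (plus strand of chromosome 7, 128379346 to 128413454) was at 319 and 307 CPM in the EV libraries and 491 and 454 CPM in the FCN3 libraries. It had no overlap between groups and the smallest adjusted p of the 10 genes, with a log2 fold change of 0.59 (SE 0.05, 95% interval 0.50 to 0.69, adjusted p = 5.3e-15 in edgeR, and 0.021 without the replicate block), an increase of 50.9%. The difference was 0.62 in replicate 1 and 0.57 in replicate 2. An exon of OPN1SW on the opposite strand overlaps CALU by up to 175 bases.

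RCN1 (plus strand of chromosome 11, 32112620 to 32127268) was at 283 and 257 CPM in the EV libraries and 398 and 366 CPM with the FCN3 virus. Both FCN3 libraries were above both EV libraries. The log2 fold change was 0.50 (SE 0.05, 95% interval 0.40 to 0.60, adjusted p = 1.8e-12 in edgeR, and 0.040 without the block), or 41.6% higher, with 0.49 in replicate 1 and 0.51 in replicate 2. Its expected counts were not whole (10324.68 in EV replicate 1, for example), so a part of its reads was divided with other features.

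**Figure D3:**
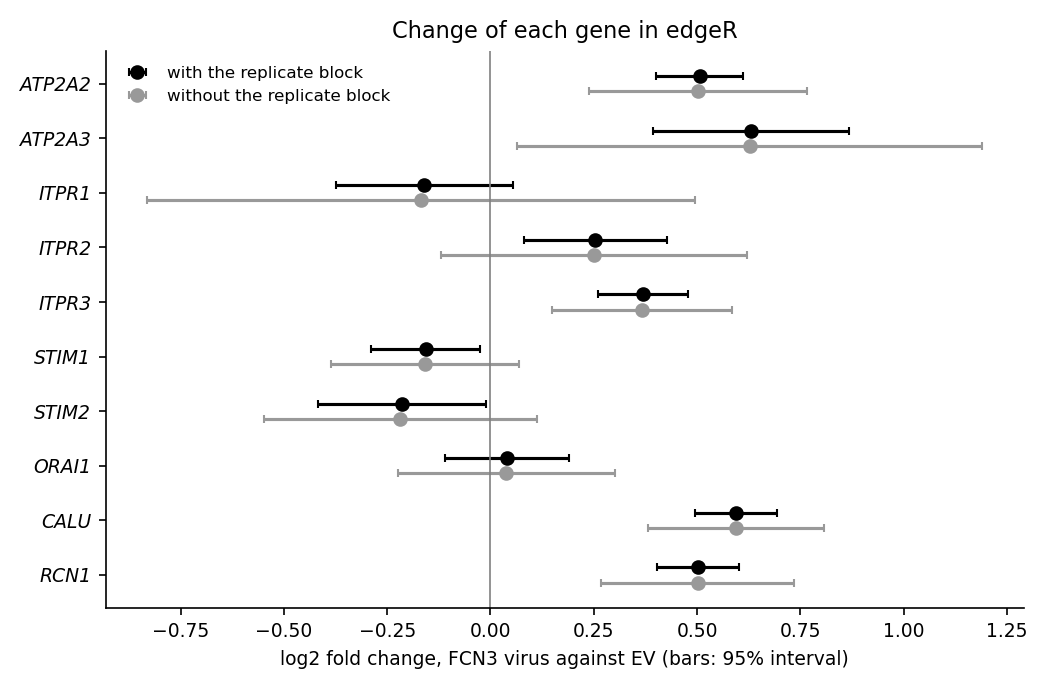
Log2 fold change of the FCN3 virus against EV for the 10 genes (horizontal axis), with 95% intervals, from edgeR with the replicate block (black) and without it (grey). The estimates nearly coincide, while the intervals without the block are wider. With the block the intervals of ITPR1 and ORAI1 span 0, and without it those of ITPR2, STIM1 and STIM2 do so too.

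The upstream sequences of ATP2A2, CALU and RCN1 are shown because these highly expressed genes rose together and because promoters of ER stress genes are known to carry short response elements. RefSeq promoter windows (GRCh38.p14) were at hand for ATP2A2, CALU, ITPR1, ITPR3, RCN1, STIM1 and STIM2, with 2 start sites for ATP2A2 and 4 for STIM1. The 250 bases before each start were searched on both strands. None of these windows held the ER stress response element, CCAAT and CCACG with 9 open bases between them, which 0.0740% of the 35116 windows in the table held. None held ERSE-II (ATTGG and CCACG with 1 open base between them, in 0.0513%), the UPR element TGACGTGG (0.612%), the C/EBP-ATF element TGATGNAAT (0.888%) or the cAMP response element TGACGTCA (1.65%). Partial forms were searched after the windows were seen. ATP2A2 held CCAAT and CCAC with 9 open bases between them, which is the first of these elements without its last base, found in 0.282% of windows. CALU and RCN1 both held GACGTGG, found in 2.62% of windows and contained in the UPR element. The box CCAAT, which is part of the first element, was in 32.0% of windows, and among the 10 genes also in STIM1 and STIM2, which did not pass the test. The windows of ITPR1 and of ITPR3, which rose, and the other window of ATP2A2 held none of the forms searched. In the sequences that follow, written 5′ to 3′ on the plus strand, capitals mark the fixed letters of these 3 matches. They run from 69 to 40 bases before the start for ATP2A2 (chr12:110281178-110281207), from 250 to 68 bases before it for CALU (chr7:128739109-128739291) and over all 250 bases for RCN1 (chr11:32090824-32091073).
ATP2A2: tctcggCCAATgagcggcgtCCACatgccg
CALU: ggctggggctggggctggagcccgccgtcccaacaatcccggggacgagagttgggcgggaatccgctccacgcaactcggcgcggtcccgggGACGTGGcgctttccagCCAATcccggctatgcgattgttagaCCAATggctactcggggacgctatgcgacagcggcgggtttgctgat
RCN1: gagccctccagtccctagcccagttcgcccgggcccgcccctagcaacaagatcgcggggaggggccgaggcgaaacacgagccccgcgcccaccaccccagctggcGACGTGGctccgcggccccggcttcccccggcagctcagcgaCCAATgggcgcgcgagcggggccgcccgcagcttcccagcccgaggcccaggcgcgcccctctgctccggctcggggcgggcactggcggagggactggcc
In CALU and RCN1 the GACGTGG match lies upstream of a CCAAT box, and in ATP2A2 the CCAAT box is the start of the longer match. A match of letters is a description of the sequence and not evidence of binding.

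Levels per transcript length gave a clear order of the 10 genes. In EV cells ATP2A2 was at 266 ± 22.8 TPM (SD, n = 2), RCN1 at 221 and 199 TPM and CALU at 113 and 107 TPM. ORAI1 (44.5 and 43.6 TPM), ITPR3 (30.4 ± 1.65) and STIM1 (25.9 ± 0.573) formed a middle range, and STIM2 stood at 5.77 ± 0.325. ATP2A3 (3.34 ± 0.841 TPM), ITPR2 (2.98 ± 0.304) and ITPR1 (2.50 ± 0.672) were lowest, and only these had ranges that overlapped with the next gene in the order. With the FCN3 virus the order was the same down to STIM1, at 362 ± 15.3 TPM for ATP2A2, 277 ± 13.2 for RCN1 and 155 ± 6.83 for CALU (SD, n = 2). ATP2A3 (4.70 ± 0.601 TPM) and STIM2 (4.59 ± 0.0707) then overlapped, with ITPR2 (3.30 ± 0.396) and ITPR1 (2.08 ± 0.544) below them.

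Ratios of TPM set the roles beside each other, as values with no test. The summed TPM of ATP2A2 and ATP2A3 per summed IP3 receptor TPM was 7.14 and 7.87 in the EV libraries and 8.72 and 8.81 in the FCN3 libraries. ORAI1 TPM per summed STIM TPM was 1.43 and 1.35 in EV cells and 1.64 and 1.57 with the FCN3 virus. In both ratios the FCN3 libraries lay above the EV libraries. With 2 libraries per group, 54.5% of single tested genes did not overlap in CPM. ORAI1, STIM1 and STIM2 did not pass the test, and ORAI1 itself was at 44.5 and 43.6 TPM in EV cells and 43.7 and 40.4 TPM with the FCN3 virus.

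Another 65 genes of calcium handling were taken from 7 lists, and 56 of them were tested. These lists, too, were chosen with earlier results of these data known. The shares called within them are therefore descriptions, and an excess over all tested genes is not independent support. edgeR with the block called 19 as higher and 6 as lower, or 44.6% of them beside 36.2% of all tested genes, and the log2 fold changes had a median of 0.13. In edgeR without the block 5 were called (HSPA5, HSP90B1, NUCB2, CALR and ERP44), beside 0.965% of all tested genes. DESeq2 called 14 with the block, where it called 16.2% of all genes it tested. Without the block DESeq2 called 9, the 5 of edgeR and NUCB1, TMEM66, ATP2B4 and ITPKC, beside 7.86% of the genes it tested.

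The list of lumenal calcium-binding proteins of the secretory pathway held the largest changes. Of 8 tested lumenal calcium-binding proteins other than CALU and RCN1, 6 rose and none fell. That is 75.0% called, beside 36.2% of all tested genes (19.1% higher and 17.1% lower). The median of the 8 log2 fold changes was 1.19. The largest increases were those of the chaperones HSPA5 (3.19, SE 0.06) and HSP90B1 (2.44, SE 0.05), whose adjusted p in edgeR without the block was 9.9e-04 and 0.0012. The other increases were those of NUCB2, CALR, NUCB1 and SDF4, named after their values were seen. The other reticulocalbins, RCN2 and RCN3, did not pass. RCN2 had a log2 fold change of 0.14 (adjusted p = 0.040 in edgeR). The weakly expressed RCN3 had one of -0.62 (adjusted p = 0.041 in edgeR), with 1.78 and 2.57 CPM against 1.06 and 1.86 CPM.

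Among the 11 tested partners and regulators of IP3 receptors, 4 rose and 2 fell, or 54.5% called beside 36.2% of all tested genes. ERP44, a lumenal thioredoxin-like protein known to bind ITPR1, went from 47.7 and 45.0 CPM to 108 and 96.5 CPM, a log2 fold change of 1.14 (SE 0.06), and was called also without the block (adjusted p = 0.0070 in edgeR). ITPKC, a kinase that phosphorylates IP3, rose by 0.92 on the log2 scale (SE 0.08). AHCYL1, also known as IRBIT, which competes with IP3 for the receptor, had a log2 fold change of -0.37 (SE 0.05), and ERLIN1, part of a complex that marks active receptors for degradation, one of -0.35 (SE 0.06). Both were called decreases with the block and not without it (adjusted p = 0.085 and 0.12 in edgeR).

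Among the 11 other genes of store-operated entry, 3 rose and 1 fell, which at 36.4% is close to the 36.2% called over all tested genes. TMEM66, which encodes SARAF, a brake on STIM-operated entry, rose from 114 and 117 CPM to 197 and 180.2 CPM (log2 fold change 0.71, SE 0.05). EFCAB4A had a log2 fold change of 0.73 (SE 0.23) at a low level, and its groups overlapped. The channel paralog ORAI3 rose by 0.47 (SE 0.12), from 8.10 and 9.80 CPM to 12.2 and 12.2 CPM, whereas ORAI2 did not pass (0.14, adjusted p = 0.056 in edgeR). SLC35G1, an ER protein known as a partner of STIM1, fell by 0.59 on the log2 scale (SE 0.11). DESeq2 called TMEM66 alone of the 11, both with the block (adjusted p = 7.6e-16) and without it (adjusted p = 9.7e-07). In DESeq2 with the block the adjusted p was 0.16 for ORAI3, 0.34 for EFCAB4A and 0.026 for SLC35G1. Without the block edgeR called none of the 11, with an adjusted p of 0.015 for TMEM66.

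For export from the cell, 3 of 5 tested genes rose and 1 fell, or 80.0% called beside 36.2% of all tested genes (19.1% higher and 17.1% lower). The plasma membrane pump ATP2B4 rose by 0.81 on the log2 scale (SE 0.07) and the sodium-calcium exchanger SLC8A1 by 0.59 (SE 0.15), although the groups of the latter overlapped. ATP2B3, a pump best known from neurons, fell from 1.70 and 2.03 CPM to 0.943 and 0.855 CPM, a log2 fold change of -0.995 (SE 0.29). That gene had 62 and 34 expected counts in the EV libraries and 32 and 17 in the FCN3 libraries. DESeq2 with the block called 2 of the 5, among them ATP2B4 (adjusted p = 1.4e-09). It did not call SLC8A1 (adjusted p = 0.081) or ATP2B3 (adjusted p = 0.24). Without the block edgeR called none of the 5, and DESeq2 called ATP2B4 alone (adjusted p = 6.1e-06).

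The remaining lists moved little. In each of them the share called was below the 36.2% of all tested genes (19.1% higher and 17.1% lower). Of 5 tested secretory pathway pumps and SERCA regulators, only SEPN1, a selenoprotein of the ER membrane, was called (log2 fold change -0.19, SE 0.05), and its groups overlapped. ATP2A1, the SERCA pump of fast skeletal muscle, was at 1.13 and 2.21 CPM in the EV libraries and 0.884 and 3.42 CPM in the FCN3 libraries, which does not separate the groups (adjusted p = 0.54 in edgeR). Of 7 tested ryanodine receptors and leak channels, 2 rose, among them PKD2 with a log2 fold change of 0.24 (SE 0.06). Of 9 genes of mitochondrial uptake, MCUR1 rose by 0.35 (SE 0.07) and VDAC3 fell by 0.28 (SE 0.05), each on the log2 scale. These calls came from edgeR with the block, and without it neither edgeR nor DESeq2 called any of these genes.

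**Figure D4:**
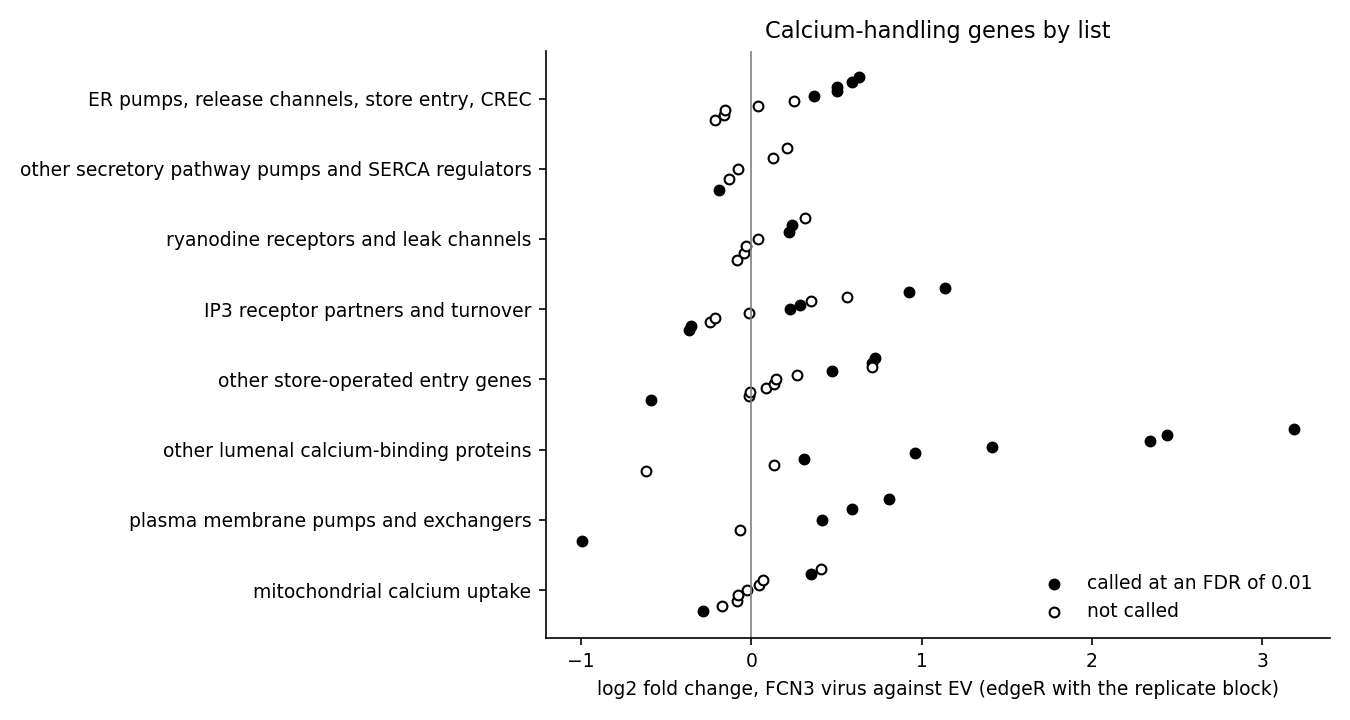
Log2 fold change of the FCN3 virus against EV (edgeR with the replicate block) for the 10 genes (top row) and for the tested genes of the 7 other calcium lists, where each point is a gene, filled if called at an FDR of 0.01. The widest spread to the right is that of the lumenal calcium-binding proteins, up to 3.19, while the 10 genes lie between -0.21 and 0.63.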

How the data were processed

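A549 RNA was sequenced in 2 EV and 2 FCN3-virus libraries. The authors trimmed paired-end reads, aligned them to hg19 with STAR 2.6.1d and estimated abundance with RSEM over RefSeq transcripts. The authors deposited expected counts (estimated counts, not normalized), TPM and FPKM per gene, with a mean transcript length. FPKM was not used. Expected counts were rounded, filtered (filterByExpr), normalized (TMM) and tested with edgeR 4.0.16 in R 4.3.3 (glmQLFit without the legacy method, replicate number as a block, Benjamini-Hochberg adjustment over 14099 genes, threshold 0.01). The block leaves 1 residual degree of freedom per gene, moderated across genes to a median total of 50.1. SE is the absolute log2 fold change over the square root of F, and intervals use the moderated t quantile.

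The pairing comes from the replicate numbers in the labels, which do not say what a shared number stands for. Differences between replicates 1 and 2 correlated between EV and FCN3 libraries (Pearson's r = 0.806, across 8310 genes with an average log2 CPM above 4). A floor of 3 counts equals 0.0840 to 0.183 CPM. It covers counting error only. DESeq2 1.42.0, limma 3.58.1, other scalings, filters and pseudocounts (1 and 0.1 on TPM) and each library left out were tried. Scripts were also run on simulated counts with the same replicate differences in both groups. The block assumes just that, so this run cannot support the calls made here. The 10 genes and all lists were chosen with earlier results of these data known. The genes named from a list were its largest called changes, at most 2 in each direction, and the paralogs ATP2A1, ORAI2, ORAI3, RCN2 and RCN3. CALR, NUCB1, NUCB2 and SDF4 fall outside that rule. 5 list genes were matched by older symbols, and 1 list gene is counted but not reported here by name. Gene locations and exon overlaps come from GENCODE v44 lifted to GRCh37. Promoter sequence within a GENCODE exon of the gene was printed for at most 30 bases.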

Additional observations from a re-analysis of the deposited data

How the results depend on the processing

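With the replicate block, the call of 5103 genes, 5 of the 10 calcium genes and 25 list genes stayed within 1.5 times under limma-voom, RLE factors, FCN3 left out, no filter, 10 counts in every library, the legacy method, an effective-length offset and an FDR of 0.05. With no replicate block, 136 genes (76.5% of them higher, against 52.7% with it), 0 of the 10 and 5 list genes were called. The cause was not tested for this or any other shift here. DESeq2 called 2212 genes and 14 list genes with the block, and 1047, 3 and 9 (genes, calcium genes, list genes) without it. limma on log2(TPM + 1) called 1991 genes (738 higher, 1253 lower), 1 and 12, on log2(TPM + 0.1) 106 (62.3% higher), 0 and 3, and on log2(TPM + 1) with no filter 1, 0 and 0. A required change of 1 on the log2 scale, besides the FDR, left 689, 0 and 5. Leaving out 1 library is possible only with no block, since the block then uses up the residual degrees of freedom, and gave 92 to 267 genes, 0 of the 10 and 4 to 6 list genes.

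The 5 genes that rose kept their direction in all 19 alternatives, and so did ITPR2, STIM1 and STIM2, which were not called. The settings with an FDR of 0.05 and with a required log2 change reuse the main fold changes, so direction could not change there. ORAI1 turned to -0.07 on each TPM scale (-0.067 with a pseudocount of 1, -0.068 with 0.1) and ran from -0.035 to 0.103 with a library left out. ITPR1 ran from -0.49 to 0.17 (without FCN3 replicate 1 and EV replicate 1). Over the 10 genes, with those settings included, 132 of 190 values kept direction and call, 47 lost the call, 5 gained it and 6 changed sign. ATP2A3, ITPR1, STIM2 and ITPR2, the genes with the fewest counts, had the widest intervals.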

Other observations

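Of the other calcium genes, 9 were too low to test, and they are named after their values were seen. PLN, which encodes the SERCA inhibitor phospholamban of heart muscle, and CASQ2, the calcium buffer of the cardiac sarcoplasmic reticulum, had no counts in any library. CASQ1, SLN, RYR2, HRC, ATP2B2, ATP2C2 and MRVI1 averaged at most 0.328 CPM in either group. These levels are near the floor of 3 counts, so small amounts of their mRNA would not be seen at this depth.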
